A study of Mus musculus with 6 samples.

Results

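The globin genes and the gene of the alpha-globin chaperone were followed in 6 RNA-seq libraries of mouse bone marrow. The set held 7 of the 46333 genes in the files, chosen by symbol and not by level: the adult alpha-type genes Hba-a1 and Hba-a2, the adult beta-type genes Hbb-bs and Hbb-bt, the embryonic beta-type genes Hbb-bh1 and Hbb-y, and Ahsp. It was chosen with earlier results of these data known. The libraries fell into 3 control libraries, labelled as a negative control, and 3 libraries of mice under chronic unpredictable mild stress (CUMS), a procedure of changing mild stressors applied for 4 weeks to bring about a depression-like state. Both groups were total RNA of bone marrow cells, and their labels name no transgene, allele or drug. Strain, sex and age are not in the labels used here. Nor is it stated that each library is from its own animal, so a p-value here covers the variation among these samples alone, which may be technical.

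Haemoglobin is assembled from alpha-type and beta-type chains in equal number, each holding a heme group, and it carries oxygen in red cells. Erythroblasts of the adult marrow transcribe the adult globin genes at very high rates, and the messages persist into reticulocytes after the nucleus is gone. The embryonic beta-type genes serve the primitive red cells of the early embryo and are largely silent in adult marrow, and Ahsp binds free alpha chains and keeps them soluble until they meet a beta chain.

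None of the 7 genes passed the test between CUMS and control, and all 7 had a higher mean log2 level in CUMS. Levels are given in FPKM, that is fragments scaled by transcript length and by library size, which allows genes to be compared per length. A log2 change is CUMS minus control on log2(FPKM + 1), and a gene passed at a Benjamini-Hochberg adjusted p under 0.05 by limma over the 12302 genes that reached 1 FPKM in 3 libraries or more. Over all these genes 132 (1.07%) passed, 76 higher and 56 lower in CUMS, and all 7 members were among the genes tested. With the libraries scaled to the same summed FPKM the split was 65 higher and 101 lower. At an unadjusted p under 0.05 limma gave 0 of the 7 members and 1898 (15.4%) of all genes tested. That count was 3 of 7 with the libraries scaled to the same summed FPKM (16.3% of all genes), 3 with the adult globins left out of that sum (15.9%), 2 without the trend (15.2%), and 5 with the replicate block (28.7%) or the header code as a term (31.3%). The SEs printed for the 4 adult genes, 0.22 to 0.25, became 0.11 to 0.14 in limma without the trend, so the intervals given for them are wide by comparison. In bulk RNA, fewer cells of a type and less RNA per cell cannot be told apart.

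The libraries summed to between 561552 and 658588 FPKM, and their depth in counts is unknown. The file headers hold a code, 1 in replicate 1 of both groups and 2 in the other 4 libraries, and no source used here says what it stands for. By limma with group and code, 3747 genes (30.5% of those tested) differed between the codes, and replicate 1 of both groups stood apart from the other libraries. Defining markers of red cell precursors were present in every library: all 10 on the list were tested, and their summed level was 2226 to 2493 FPKM in control and 2538 to 2922 FPKM in CUMS.

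The alpha-globin genes lie on chromosome 11 and the beta-globin genes on chromosome 7. In the GENCODE M21 annotation of GRCm38, Hba-a1 spans chr11:32283511-32284465 and Hba-a2 chr11:32296489-32297298, both on the plus strand with 3 exons. On the minus strand of chromosome 7, Hbb-bt spans chr7:103812524-103813996, Hbb-bs chr7:103826534-103827928, Hbb-bh1 chr7:103841637-103843164 and Hbb-y chr7:103851749-103853216, each with 3 exons. The members of each adult pair are near-identical copies, which bears on how reads could be assigned to them. Hba-a1 and Hba-a2 have 426 coding bases each and differ at 1 of them, coding base 381 in codon 127. Hbb-bs and Hbb-bt have 441 coding bases each and differ at 1 of them, coding base 417 in codon 139. The stretches that hold these differences are shown 5′ to 3′ from the GENCODE transcripts, with the differing base in capitals (coding bases 361 to 420 of each gene).
Hba-a1: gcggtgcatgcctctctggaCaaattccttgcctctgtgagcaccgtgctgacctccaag
Hba-a2: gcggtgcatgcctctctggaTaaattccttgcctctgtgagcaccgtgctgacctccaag
Hbb-bs: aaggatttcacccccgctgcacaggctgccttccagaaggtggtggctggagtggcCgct
Hbb-bt: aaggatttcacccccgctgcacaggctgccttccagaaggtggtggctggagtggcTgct

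Of the 549 stretches of 151 bases in the Hba-a1 transcript, the length of 1 read, 265 (48.3%) also occur in Hba-a2. For Hba-a2 they are 65.6% of its 404 stretches. The GENCODE model of Hba-a1 starts at chr11:32283511, ahead of the RefSeq start at chr11:32283672, so the share for Hba-a1 depends on the model used. Hbb-bs shares 280 of its 478 stretches (58.6%) with Hbb-bt, which are 50.6% of the 553 in Hbb-bt. These shares are for single reads. The libraries were read from both ends, and the share of fragments that match both copies was not counted. The sources used here do not say how reads that match both copies were assigned, so the level of a single adult copy is uncertain. The sum of a pair holds such reads if they were split between the copies, but not if they were dropped. The adult globin share, the alpha to beta ratio and Ahsp per alpha message below rest on these sums. Sequence upstream of the starts is shown for 3 genes because the members had values on the same side in CUMS: 120 bases before the RefSeq start (GRCm38.p6), 5′ to 3′ on each gene's own strand, with the CCAAT motif, the CACCC motif and the TATAA motif in capitals. The stretches are chr11:32296372-32296491 for Hba-a2, chr7:103827929-103828048 for Hbb-bs and chr7:103853208-103853327 for Hbb-y.
Hba-a2: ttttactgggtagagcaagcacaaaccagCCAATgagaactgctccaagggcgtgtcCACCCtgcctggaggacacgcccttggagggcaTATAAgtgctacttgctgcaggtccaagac
Hbb-bs: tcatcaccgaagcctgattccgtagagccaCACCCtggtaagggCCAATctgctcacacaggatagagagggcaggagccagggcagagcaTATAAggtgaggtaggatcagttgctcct
Hbb-y: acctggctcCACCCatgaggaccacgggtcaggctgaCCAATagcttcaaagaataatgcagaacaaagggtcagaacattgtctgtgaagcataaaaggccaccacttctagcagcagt

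The CCAAT motif, the CACCC motif, the TATAA motif and the GATAA motif were searched by these letters on both strands, with no overlap of 2 motifs in the stretches shown. The stretches of Hba-a1, Hba-a2, Hbb-bs and Hbb-bt hold the first 3, that of Hbb-y holds CCAAT and CACCC, and none of the 5 holds GATAA. The stretch of Hba-a1 (chr11:32283552-32283671) lies before its RefSeq start but within the span of its GENCODE model. In the same window of 27025 promoters, CCAAT is found in 22.1%, CACCC in 31.3%, TATAA in 12.4% and GATAA in 10.7%. The windows of Hba-a1 and Hba-a2 share a run of 117 bases, whereas the longest run shared by Hbb-bs and Hbb-bt is 14 bases.

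The 4 adult globin genes were the 4 genes with the highest FPKM in 6 of 6 libraries, in the order Hba-a1, Hbb-bs, Hba-a2 and Hbb-bt in each. Hba-a1, an adult alpha-globin gene, stood at 63522, 55298 and 60659.6 FPKM in control replicates 1, 2 and 3 and at 75679, 62038 and 60499.5 FPKM in CUMS replicates 1, 2 and 3. The groups overlapped: control replicate 1 lay above CUMS replicates 2 and 3, and control replicate 3 above CUMS replicate 3. Its mean was 59827 ± 4175 FPKM in control and 66072 ± 8355 FPKM in CUMS (SD, n = 3 each). The log2 change was 0.14 (SE 0.25, 95% interval -0.45 to 0.72, limma adjusted p = 0.853).

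Hba-a2, the other adult alpha-globin gene, was read at 36590.4, 32339.8 and 32366 FPKM in control and at 44972, 39575 and 38675 FPKM in CUMS, in the order of the replicates. It was the only one of the 7 members whose groups did not overlap, with every CUMS library above every control library. In 10% of all genes tested the CUMS libraries likewise all lay above the controls, and in 12.1% all below. The mean of Hba-a2 was 33766 ± 2446 FPKM in control and 41074 ± 3406 FPKM in CUMS (SD, n = 3 each). Its log2 change was 0.28 (SE 0.22, 95% interval -0.23 to 0.79, limma adjusted p = 0.604).

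Hbb-bs, an adult beta-globin gene, stood at 57152, 46514 and 47092 FPKM in control and at 70096, 58944 and 57132 FPKM in CUMS. CUMS replicate 1 was the highest library and control replicate 1 lay just above CUMS replicate 3, so the groups overlapped. The mean was 50253 ± 5982 FPKM in control and 62058 ± 7020 FPKM in CUMS (SD, n = 3 each), a log2 change of 0.31 (SE 0.25, 95% interval -0.27 to 0.88, limma adjusted p = 0.624).

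Hbb-bt, the other adult beta-globin gene, was the lowest of the 4, at 34788, 27441 and 28856 FPKM in control and 39344, 31579 and 31546 FPKM in CUMS. Replicate 1 was the highest library of each group, and control replicate 1 lay above CUMS replicates 2 and 3. Its mean was 30362 ± 3898 FPKM in control and 34157 ± 4492 FPKM in CUMS (SD, n = 3 each), a log2 change of 0.17 (SE 0.23, 95% interval -0.36 to 0.70, limma adjusted p = 0.789). Each of the 4 adult genes was thus highest in CUMS replicate 1, and in each group the library with header code 1 had the highest level.

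**Figure D1:**
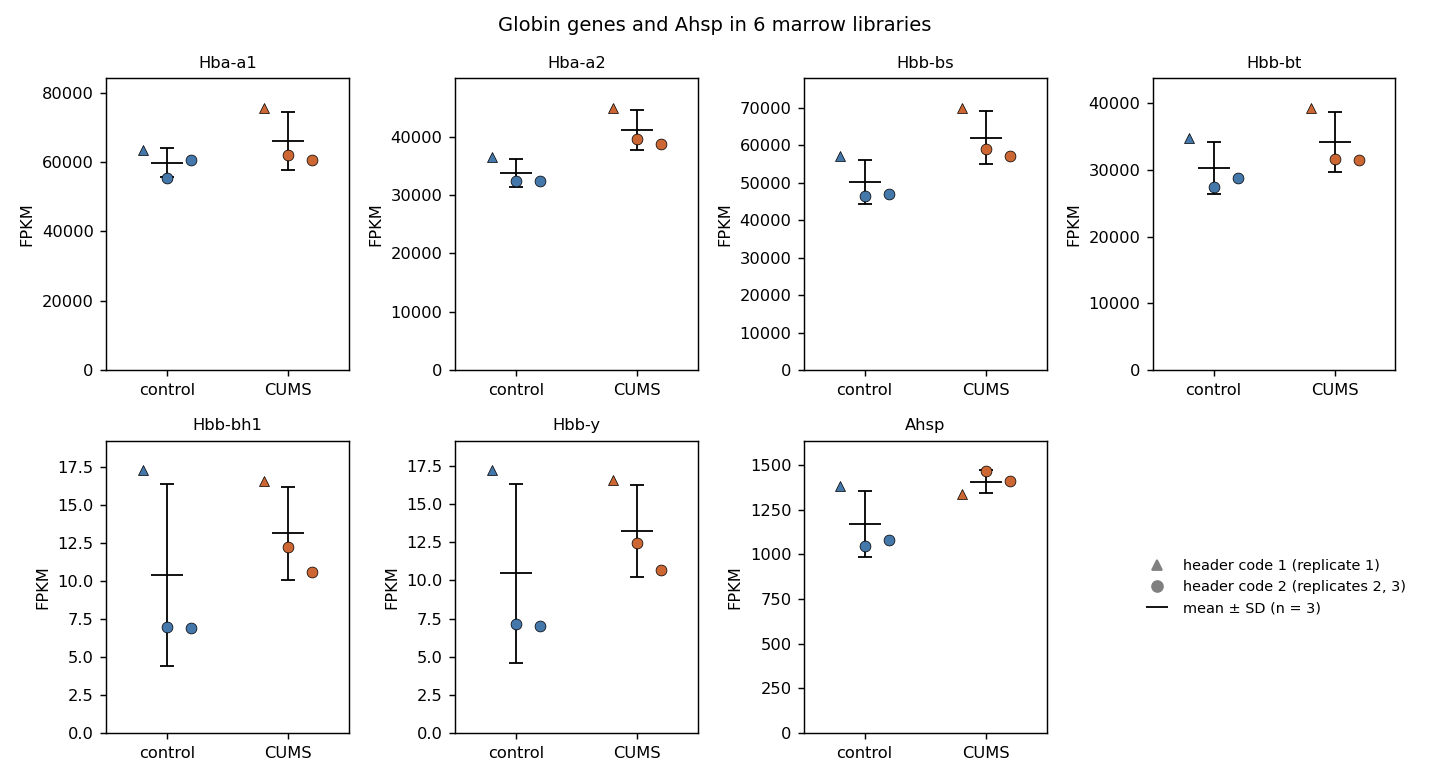
FPKM of each of the 7 genes by library, 1 panel per gene with a linear axis that starts at 0; points are libraries (triangles for header code 1, circles for code 2), bars are group means and whiskers are 1 SD over 3 libraries. In Hba-a2 alone do all CUMS libraries lie above all control libraries, and in Hbb-bh1 and Hbb-y replicate 1 lies above the other libraries of both groups.

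Adult globin message held a larger share of every CUMS library than of any control library. The 4 adult genes together took 29.2%, 28.8% and 29.1% of the summed FPKM in control replicates 1, 2 and 3 and 35.2%, 31.9% and 31.7% in CUMS replicates 1, 2 and 3. The controls differed from each other by less than the CUMS libraries did. The mean share was 29.0 ± 0.216% in control and 32.9 ± 2.00% in CUMS (SD, n = 3 each), a difference of 3.91 percentage points, given without a test because it sums over members. Weighted by transcript length, which approximates the share of fragments, the 4 genes took 13.7%, 12.1% and 12.7% in control and 16.4%, 14.0% and 13.8% in CUMS, a difference of 1.88 points. This weighting used the 34632 genes with a GENCODE transcript length by symbol, which held at least 93.6% of the summed FPKM of each library. Those lengths may differ from the ones behind the deposited FPKM. On this scale all CUMS libraries again lay above the controls, with CUMS replicate 3 only just above control replicate 1.

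**Figure D2:**
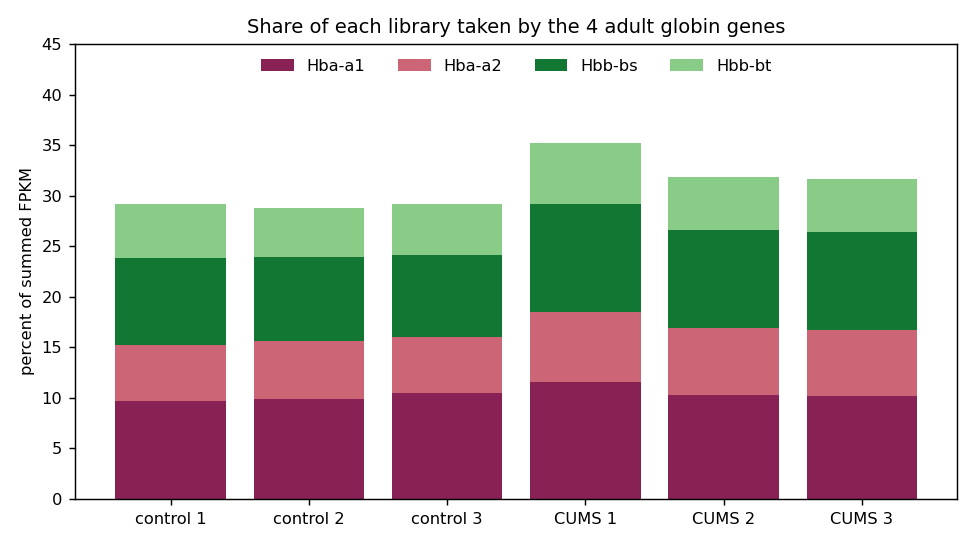
Percent of each library's summed FPKM taken by the 4 adult globin genes, with 1 stacked bar per library from 0. The bars reach 28.8% to 29.2% in control and 31.7% to 35.2% in CUMS, with CUMS replicate 1 the highest.

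Ratios between globin genes do not depend on the scaling between libraries, and 4 of them were compared by an exact 2-sided permutation test, which cannot go below p = 0.1 with 3 against 3 libraries. For the adult beta-type copies, Hbb-bs over Hbb-bt was 1.64, 1.70 and 1.63 in control and 1.78, 1.87 and 1.81 in CUMS. Every CUMS library lay above every control library, and the ratio was higher in CUMS in 3 of 3 same-numbered pairs. The means were 1.66 ± 0.0337 and 1.82 ± 0.0431 (SD, n = 3 each), a log2 difference of 0.14 (exact permutation p = 0.1, the smallest possible, Benjamini-Hochberg adjusted 0.2 over the 4 ratios).

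For the adult alpha-type copies, Hba-a1 over Hba-a2 was 1.74, 1.71 and 1.87 in control and 1.68, 1.57 and 1.56 in CUMS, so that all CUMS libraries lay below all control libraries. The means were 1.77 ± 0.0883 in control and 1.60 ± 0.0675 in CUMS (SD, n = 3 each), a log2 difference of -0.14 (exact permutation p = 0.1, adjusted 0.2). In both pairs the copies are nearly the same in coding sequence, as the stretches printed above show, so a difference in how shared reads fell to the copies and a difference in their message cannot be told apart.

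The balance of alpha-type to beta-type message was between 1.09 and 1.22 in all libraries. The sum of Hba-a1 and Hba-a2 over the sum of Hbb-bs and Hbb-bt was 1.09, 1.19 and 1.22 in control and 1.10, 1.12 and 1.12 in CUMS. The groups overlapped, and the CUMS libraries lay within the range of the controls. The means were 1.17 ± 0.0699 and 1.11 ± 0.0106 (SD, n = 3 each), a log2 difference of -0.06 (exact permutation p = 0.4, adjusted 0.533).

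Ahsp, the chaperone of free alpha chains, stood at 1385, 1049 and 1082 FPKM in control and at 1339, 1467 and 1413 FPKM in CUMS. CUMS replicates 2 and 3 were the highest libraries, and CUMS replicate 1 lay below control replicate 1. The mean was 1172 ± 185 FPKM in control and 1406 ± 64.0 FPKM in CUMS (SD, n = 3 each). The log2 change was 0.27 (SE 0.14, 95% interval -0.05 to 0.60, limma adjusted p = 0.409), which was the smallest adjusted p of the 7 members.

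Per client message, Ahsp amounted to 1.38%, 1.20% and 1.16% of the summed alpha-globin FPKM in control and to 1.11%, 1.44% and 1.43% in CUMS. Control replicate 1 was high and CUMS replicate 1 low, against the other libraries of their groups. The log2 difference over all libraries was 0.08 (exact permutation p = 0.8, adjusted 0.8). Within header code 1 it was -0.32, from 1 library a group, and within code 2 it was 0.28, from 2 libraries a group, so the direction was not shared by the codes.

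**Figure D3:**
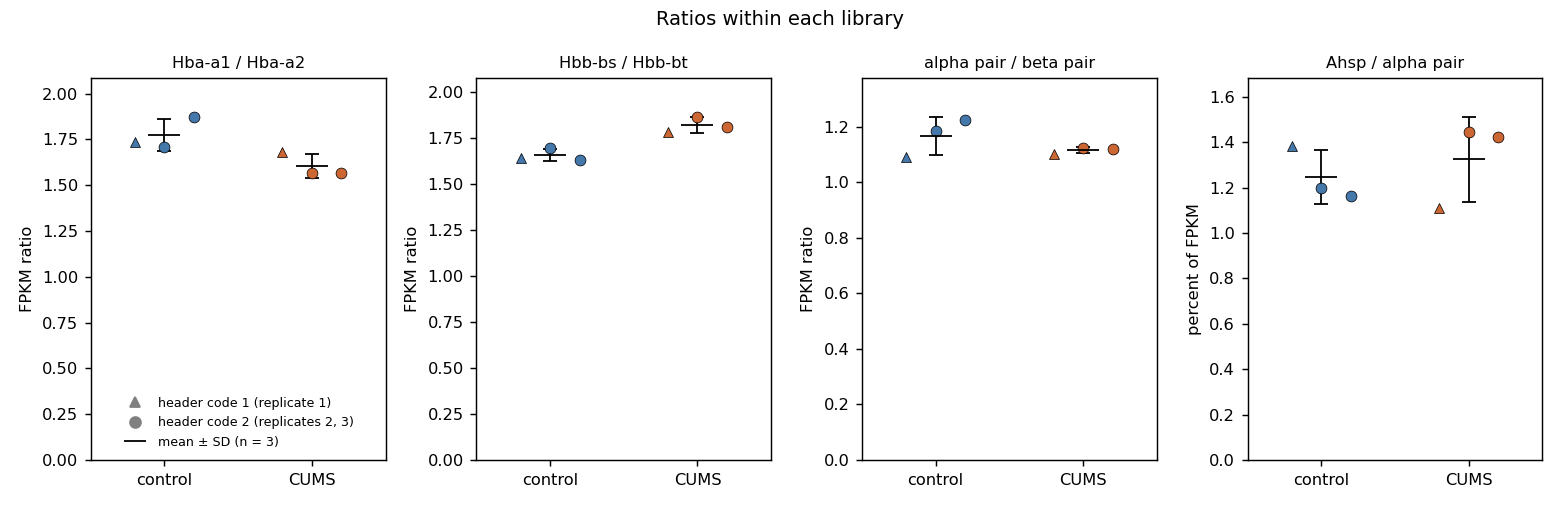
The 4 ratios of FPKM within each library, on linear axes from 0 (Ahsp over alpha globin in percent); points are libraries (triangles for header code 1, circles for code 2) and bars and whiskers are group means and 1 SD over 3 libraries. Hbb-bs over Hbb-bt is 1.63 to 1.70 in control and 1.78 to 1.87 in CUMS, and Hba-a1 over Hba-a2 is 1.71 to 1.87 in control and 1.56 to 1.68 in CUMS.

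The embryonic beta-type genes were read at a low but measurable level. They differ from Hbb-bs at far more bases than the adult copies of a pair differ from each other. Of 441 coding bases, Hbb-bh1 differs from Hbb-bs at 115 (73.9% identity) and Hbb-y at 113 (74.4% identity). Neither shares a stretch of 151 bases with Hbb-bs. Hbb-bh1 and Hbb-y have 76.4% identity to each other, share no stretch of 151 bases, and have a longest shared coding run of 26 bases. Coding bases 31 to 150 are shown 5′ to 3′ from the GENCODE transcripts, with capitals marking where Hbb-bh1 and Hbb-y differ from Hbb-bs.
Hbb-bs: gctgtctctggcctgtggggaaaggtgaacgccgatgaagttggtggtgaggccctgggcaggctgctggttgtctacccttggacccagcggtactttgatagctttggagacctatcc
Hbb-bh1: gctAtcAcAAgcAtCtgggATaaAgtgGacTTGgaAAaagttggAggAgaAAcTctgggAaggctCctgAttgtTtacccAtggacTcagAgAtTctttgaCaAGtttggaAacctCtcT
Hbb-y: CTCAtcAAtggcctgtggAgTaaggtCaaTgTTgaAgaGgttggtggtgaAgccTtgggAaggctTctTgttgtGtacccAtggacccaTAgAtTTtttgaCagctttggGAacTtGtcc

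Hbb-bh1 stood at 17.3, 6.95 and 6.88 FPKM in control and at 16.5, 12.3 and 10.6 FPKM in CUMS. Hbb-y, the other embryonic gene, stood at 17.2, 7.14 and 7.02 FPKM in control and at 16.6, 12.5 and 10.7 FPKM in CUMS. In both genes replicate 1 was the highest library of its group, and control replicate 1 was the highest of all 6, so the groups overlapped. The mean of Hbb-bh1 was 10.4 ± 5.98 FPKM in control and 13.1 ± 3.08 FPKM in CUMS (SD, n = 3 each), a log2 change of 0.41 (SE 0.33, 95% interval -0.35 to 1.17, limma adjusted p = 0.614). The mean of Hbb-y was 10.5 ± 5.85 FPKM in control and 13.3 ± 3.01 FPKM in CUMS (SD, n = 3 each), a log2 change of 0.41 (SE 0.32, 95% interval -0.33 to 1.15, limma adjusted p = 0.608). Together they made up 0.0183% to 0.0375% of the beta-type FPKM in control and 0.0240% to 0.0303% in CUMS.

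Both embryonic genes differed between the header codes. Their FPKM were nearly the same in each library, with a ratio between 0.974 and 1.00, so they may not be 2 separate readings. With both terms in the limma fit, code 1 exceeded code 2 by 0.85 on the log2 scale in Hbb-bh1 (limma adjusted p = 0.00519) and by 0.83 in Hbb-y (limma adjusted p = 0.0056). Hbb-bt also differed between the codes, by 0.31 (limma adjusted p = 0.0380), while Hba-a1, Hba-a2, Hbb-bs and Ahsp did not pass, so that 3 of the 7 members differed beside 30.5% of all genes tested. Within code 1 the change from control to CUMS was -0.06 in Hbb-bh1, -0.05 in Hbb-y and -0.05 in Ahsp, from 1 library a group. Within code 2 it was 0.65 in Hbb-bh1, 0.64 in Hbb-y and 0.43 in Ahsp, from 2 libraries a group.

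In the 4 libraries with code 2 alone, 4 of the 7 members rose: Ahsp (limma adjusted p = 0.00496), Hbb-bh1 (limma adjusted p = 0.00775), Hbb-y (limma adjusted p = 0.00812) and Hbb-bs (0.31 on the log2 scale, limma adjusted p = 0.0495). In that comparison 8.82% of all genes tested were called higher and 17.7% were called in either direction. The calls of Hbb-bh1 and Hbb-y, whose levels were nearly the same in each library, may not be 2 separate readings. Of the adult genes, Hbb-bs differed by 0.29 in code 1 and 0.31 in code 2, Hba-a2 by 0.30 and 0.27, Hbb-bt by 0.18 and 0.17, and Hba-a1 by 0.25 and 0.08. With the code as a term over all 6 libraries 0 of the 7 members passed, where 1645 (13.4%) of all genes tested did. With the replicate number as a block, again 0 passed, where 959 (7.8%) did. When the block was joined to scaling the libraries on all genes but the adult globins, an alternative added after the data were seen, 3 members rose by limma: Hba-a2 (adjusted p = 0.0303), Hbb-bs (0.0226) and Ahsp (0.0443). In that fit 5.85% of all genes tested were called higher.

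The order of the mean FPKM levels in control ran from Hba-a1 over Hbb-bs, Hba-a2 and Hbb-bt to Ahsp, Hbb-y and Hbb-bh1. Neighbours whose ranges overlapped in control were Hba-a2 with Hbb-bt, and Hbb-y with Hbb-bh1. Hba-a1 with Hbb-bs also overlapped across libraries, although Hba-a1 was higher within each library.

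**Figure D4:**
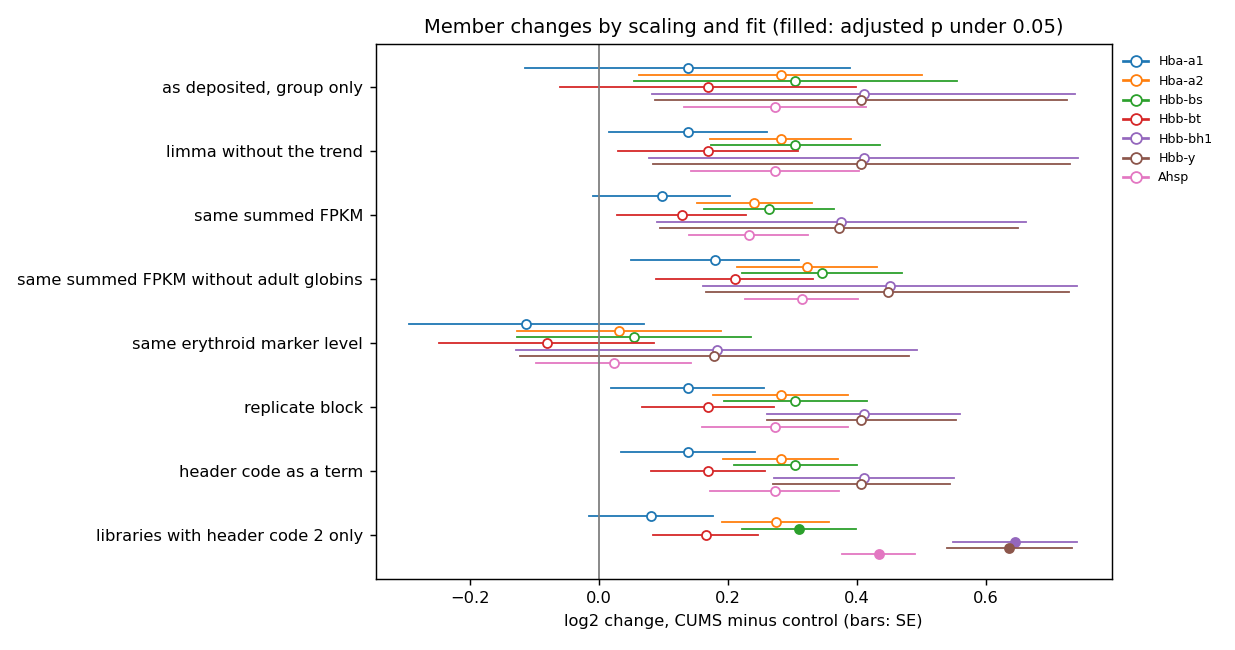
Log2 change from control to CUMS of each of the 7 genes, on the log2(FPKM + 1) scale, under the fit with group alone and under other scalings, terms and library choices; points are log2 changes, filled where the limma adjusted p is under 0.05, bars are SEs and the line at 0 marks no change. The values lie above 0 for all genes and settings shown except Hba-a1 and Hbb-bt when the libraries are scaled to the same erythroid marker level.

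Genes that work with globin in the red cell were counted by lists. Like the marker lists below, these were chosen with earlier results of these data known. None of their members passed in the fit with group alone, beside 1.07% of all genes tested, and the counts with the block stand beside 7.8%. The block pairs libraries by the number in their titles, and no label names them as pairs. Deviations of replicates 2 and 3 from their group means correlated as much when crossed (0.459 and 0.362) as when same-numbered (0.452 and 0.363). Calls with the block therefore rest on a pairing that is not established. Over all tested genes 6116 log2 changes were above 0 and 6186 below, with a median of -0.0017.

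The genes of heme synthesis, which supply the prosthetic group of each globin chain, had values above 0 in 11 of 11 genes, with a median log2 change of 0.15. Cpox, which makes protoporphyrinogen, was read at 122, 132 and 134 FPKM in control and 146, 149 and 151 FPKM in CUMS (limma adjusted p = 0.328). Alad, an early enzyme of the pathway, had a mean of 110.2 ± 11.9 FPKM in control and 136 ± 21.9 FPKM in CUMS (SD, n = 3 each; limma adjusted p = 0.369). It rose by limma with the replicate block (adjusted p = 0.0483), and no other gene on this list did. Fech, which inserts iron into the ring, had a log2 change of 0.22 (limma adjusted p = 0.431).

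The genes of the red cell membrane and the carbonic anhydrases had values above 0 in 18 of 18 genes, with a median log2 change of 0.25, and in 11 the CUMS libraries all lay above the controls, where 10% of all genes tested did. Add2, a part of the membrane skeleton, was read at 31.2, 28.3 and 28.3 FPKM in control and 40.1, 38.6 and 38.3 FPKM in CUMS, a log2 change of 0.40 (limma adjusted p = 0.0776). Rhag, of the Rh complex, had a log2 change of 0.35 (limma adjusted p = 0.109). Car1, a carbonic anhydrase of red cells, went from 128 ± 18.4 to 188 ± 24.5 FPKM (SD, n = 3 each), a log2 change of 0.55 (limma adjusted p = 0.121). With the replicate block 6 of the 18 rose and 0 fell by limma, among them Car1 (adjusted p = 0.00742), Add2 (0.0208) and Rhag (0.0273).

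The regulators of globin transcription had 10 values above 0 and 5 below, with a median log2 change of 0.05. Tal1, which acts in a complex with Gata1 at erythroid genes, was read at 41.6, 46.5 and 46.2 FPKM in control and 56.1, 57.0 and 54.2 FPKM in CUMS, a log2 change of 0.31 (limma adjusted p = 0.152). Gata1, the master factor of red cell precursors, had a log2 change of 0.32 (limma adjusted p = 0.280). Both rose with the replicate block (limma adjusted p = 0.0483 for Tal1 and 0.0467 for Gata1). Nfe2, which binds the globin control regions, had a log2 change of -0.22 (limma adjusted p = 0.495).

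The genes of late erythroid maturation did not share a direction, with 8 values above 0 and 6 below and a median log2 change of 0.10. In 5 of the 14 the CUMS libraries all lay below the controls, where 12.1% of all genes tested did. Trim58, a ubiquitin ligase of late erythroblasts, was read at 17.0, 21.3 and 20.7 FPKM in control and 12.1, 15.3 and 13.8 FPKM in CUMS, a log2 change of -0.49 (limma adjusted p = 0.124). It fell with the replicate block (limma adjusted p = 0.0142). Xpo7, a nuclear exportin, had a log2 change of -0.34 (limma adjusted p = 0.218) and Ypel4 of -0.28 (limma adjusted p = 0.228).

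Among markers of early erythroid progenitors 8 of 9 values were above 0, with a median log2 change of 0.09, and Car1 alone rose with the block. Kit, the stem cell factor receptor, had a log2 change of 0.31 (limma adjusted p = 0.267) and Tfr2, a transferrin receptor, of 0.24 (limma adjusted p = 0.329). In the list of iron and heme handling 8 of 13 values were above 0, with a median of 0.06. Hmox1, which degrades heme, went from 72.9 ± 9.83 to 102 ± 12.9 FPKM (SD, n = 3 each), a log2 change of 0.48 (limma adjusted p = 0.151), and rose with the block (limma adjusted p = 0.0115). Tfrc, which takes up transferrin iron, had a log2 change of 0.30 (limma adjusted p = 0.320).

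Genes that care for globin protein and guard red cells against oxidation were split, with 6 of 11 values above 0, a median log2 change of 0.03 and 0 calls with the block. Hspa8, a general chaperone, had a log2 change of 0.30 (limma adjusted p = 0.358), Cat, which breaks down hydrogen peroxide, of -0.14 (limma adjusted p = 0.569), and Prdx2, a peroxidase abundant in red cells, of 0.18 (limma adjusted p = 0.570). Of the other globin genes, 8 of 12 symbols were in the files and 3 were tested. Hbq1a, a theta-globin gene next to Hba-a2, had a mean of 19.8 ± 6.43 FPKM in control and 13.9 ± 3.06 FPKM in CUMS (SD, n = 3 each), a log2 change of -0.45 (limma adjusted p = 0.446). Its copy Hbq1b, which lies between Hba-a1 and Hba-a2, had a log2 change of 0.21 (limma adjusted p = 0.536). Nprl3, whose introns hold enhancers of the alpha-globin genes, had a log2 change of -0.07 (limma adjusted p = 0.803).

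**Figure D5:**
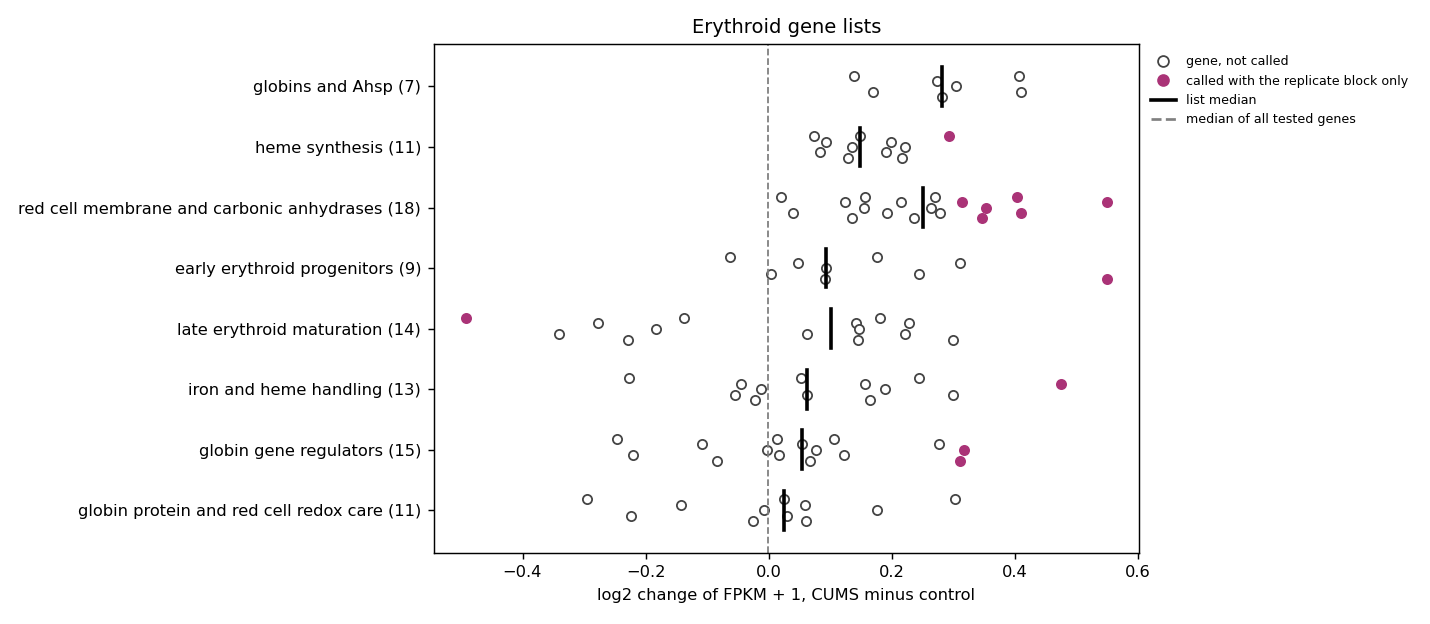
Log2 change from control to CUMS, on the log2(FPKM + 1) scale, of every tested gene in 8 lists; each point is 1 gene, filled where it passed with the replicate block only, the solid line in each row is the median of the list and the dashed line that of all tested genes. All 18 membrane and carbonic anhydrase genes and all 11 heme synthesis genes lie above 0, while the late maturation genes lie on both sides.

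Markers of the cell types in the marrow were read beside the globin genes. Erythroid markers had 10 of 10 values above 0, with a median log2 change of 0.22. With the block 4 of them rose, where 429 of all 12302 genes tested did. Their summed levels, given above, did not overlap between the groups. When the libraries were scaled to the same erythroid marker level, an alternative added after the data were seen, the log2 change was -0.11 for Hba-a1, -0.08 for Hbb-bt, 0.03 for Hba-a2, 0.05 for Hbb-bs, 0.02 for Ahsp, and 0.18 for both Hbb-bh1 and Hbb-y. On that scale the median of all genes shifted to -0.21, 15.8% of all genes tested were called (91 higher and 1852 lower), and 0 of the 7 members were.

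Of the white cell lists, those of monocytes, B cells and macrophages had medians below 0 by the most. Monocyte markers had 6 of 7 values below 0, and in 5 the CUMS libraries all lay below the controls, where 12.1% of all genes tested did. Cx3cr1 and Csf1r fell (limma adjusted p = 0.00817 and 0.0338), beside 1.07% of all genes tested called in either direction. The monocyte sums were 958 to 1203 FPKM in control and 948 to 1043 FPKM in CUMS. Most of each sum came from Ly6c2, at 632 to 849 FPKM in control and 677 to 776 FPKM in CUMS, with a log2 change of 0.05. With the block 4 monocyte, 3 B cell and 4 macrophage markers fell and none of these lists had a marker that rose. Over all 12302 genes tested the block gave 429 higher and 530 lower. B cell markers had 7 of 9 values below 0 and summed to 583 to 684 FPKM in control and 488 to 548 FPKM in CUMS. Macrophage markers had 5 of 8 values below 0 and summed to 237 to 301 FPKM in control and 198 to 225 FPKM in CUMS. B cell and macrophage sums lay below the controls in every CUMS library, while the other sums overlapped. Neutrophil markers had 8 of 10 values below 0 and summed to 50373 to 69914 FPKM in control and 52943 to 56092 FPKM in CUMS. T and NK cell markers had 7 of 7 values above 0 and summed to 70.6 to 92.6 FPKM in control and 82.3 to 96.7 FPKM in CUMS, and megakaryocyte markers had 3 of 7 above 0 and summed to 78.4 to 97.6 and 83.8 to 97.2 FPKM. No listed marker was at 0 in all libraries, and the part of these cells in the globin values was not tested.

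The genes whose levels followed the adult globins most closely were read by Pearson's r of log2(FPKM + 1) over the 6 libraries, among 2061 tested genes with a mean of at least 5 on that scale, as a description without a test. For Hbb-bs the first 4 were Nfkbia (r = 0.998), Septin1 (0.992), Gm10123 (0.991) and Minpp1 (0.989). For the sum of the 4 adult genes they were P4hb (0.991), Gm10123 (0.990), Minpp1 (0.989), Gm6136 (0.985) and Septin1 (0.983). The points share the group and the header code, and Hbb-bs was highest in the code 1 library of each group.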

How the data were processed

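Per the labels' protocols, TRIzol RNA of 6 bone marrow samples went into TruSeq libraries that were read from both ends over 151 bp. Tools named in the submitters' processing notes are HISAT2 2.1, featureCounts 1.6.4, bcl2fastq 2.19, cutadapt 1.16.5 and DESeq2 2.11.40.6, with the build mm10, without saying which made the values, how reads matching several genes were assigned or whether strand was used. The deposited values are FPKM per gene: no label names the unit, which was inferred from values that are not whole and whose sum weighted by transcript length came to 867795 to 912554 per library. Whole read numbers could not be recovered from the spacing of low values, so precision rests on the spread between libraries.

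The 7 members and all lists were chosen with earlier results of these data known. The test was limma-trend (limma 3.58.1, R 4.3.3) on log2(FPKM + 1) with group as the only term, over all 12302 genes that reached 1 FPKM in 3 libraries or more. Ratios were tested by exact permutation (Python 3.11.15). On simulated data for this comparison, over 12302 genes, the fit recovered 75 of 100 genes changed 2-fold and 35 of 100 changed 1.5-fold, with 5 false calls. Each gene was drawn independently with no effect of the header code, and the changed genes were not taken from the lowest levels. These counts therefore need not hold for the real libraries or for the 7 members. Named genes were the 7 members, up to 3 per list with the smallest p, and the 5 genes most like Hbb-bs and the 5 most like the adult sum, of which 1 gene is not reported here; list members named beyond these (Cx3cr1, Csf1r) are the called ones. Transcripts were those of GENCODE M21 and promoters those of RefSeq (GRCm38.p6), matched by symbol. The promoter table gave entries for Hba-a1, Hba-a2, Hbb-bs, Hbb-bt and Hbb-y, and Ahsp and Hbb-bh1 were not matched there.

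The titles number the replicates. Same-numbered libraries of the 2 groups deviated from their group means together, with correlations over the tested genes of 0.689, 0.452 and 0.363. Crossing replicates 2 and 3 gave 0.459 and 0.362, and replicate 1 of both groups shares the header code. By the rule set for this check the numbers were treated as pairs, though no label names them so, and the blocked values are given where they change a call. Alternatives were other pseudocounts, filters and scalings, the block, the header code, limma without the trend and leaving out each library.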

Additional observations from a re-analysis of the deposited data

How the results depend on the processing

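Of 105 values of the 7 members under other settings, all but 4 kept their direction and their side of the threshold. The 4 were Hbb-bs (0.31), Hbb-bh1 (0.65), Hbb-y (0.64) and Ahsp (0.43), called when only the libraries with header code 2 entered. Some of the 105 values could hardly have come out otherwise. With no filter, no trend, the block or the code as a term, the log2 changes equal those with group alone, so their direction was fixed. Without a filter the SEs of the adult genes were 1.39 to 2.41, on log2 changes of 0.14 to 0.31, which left little room for a call. Leaving out each library in turn, 42 of 42 member values stayed above 0 with 0 calls, and the ranges were 0.04 to 0.20 for Hba-a1, 0.21 to 0.34 for Hba-a2, 0.21 to 0.40 for Hbb-bs, 0.06 to 0.27 for Hbb-bt, 0.21 to 0.81 for Hbb-bh1, 0.21 to 0.80 for Hbb-y and 0.20 to 0.40 for Ahsp. The log2 differences of the ratios ran from -0.11 to -0.03 for alpha to beta, 0.12 to 0.15 for Hbb-bs to Hbb-bt, -0.18 to -0.10 for Hba-a1 to Hba-a2 and 0.02 to 0.20 for Ahsp to alpha. The numbers of genes called over all genes were 43 without a filter, 959 with the replicate block, 1645 with the header code as a term, 2173 in the code 2 libraries and 17 to 262 leaving out each library, against 132. Without single libraries the counts were 262 (control replicate 1), 33 (control replicate 2), 17 (control replicate 3), 72 (CUMS replicate 1), 19 (CUMS replicate 2) and 17 (CUMS replicate 3). The difference in adult globin share was 1.88 points when weighted by transcript length, and 2.75 points of summed FPKM without CUMS replicate 1.

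Alternatives chosen after seeing the data gave 1943 genes called with libraries scaled to the same erythroid marker level, where Hba-a1 (-0.11) and Hbb-bt (-0.0805) changed sign. The replicate block joined to scaling without the adult globin genes gave 1160, with 3 members called: Hba-a2 (0.32, limma adjusted p = 0.0303), Hbb-bs (0.35, 0.0226) and Ahsp (0.31, 0.0443), where 5.85% of all genes were called higher. With the replicate block alone, the changes of the members were the same and the ratio tests, by exact sign-flip over 3 pairs that cannot go below 0.25, gave 0.5 for alpha to beta, 0.25 for Hbb-bs to Hbb-bt and for Hba-a1 to Hba-a2, and 1 for Ahsp to alpha. The block alone changed no call of a member. The cause of these shifts was not tested. Without counts, depth limits cannot be stated for the low embryonic genes, and the 95% interval of Hbb-bh1 allows a log2 change from -0.35 to 1.17.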

Other observations

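The following values were picked after the data were seen. Hbb-bh1 and Hbb-y, neighbours in the beta-globin cluster with 76.4% identity in coding sequence, had nearly the same FPKM in each library. Their ratio lay between 0.974 and 1.00 in all 6 libraries, a largest difference of 0.0373 on the log2 scale. None of 11217 other pairs of neighbouring genes above 1 FPKM in all libraries (0 of them) was as close in every library. The closest of those had a largest difference of 0.0681 and their median was 1.98.

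Other genes around the clusters were read from the RefSeq gene order on GRCm38. Hbb-bh2, a beta-type gene between Hbb-bs and Hbb-bh1, was listed at 16.9 and 9.74 FPKM in control replicates 1 and 2 and at 0 in control replicate 3 and in all CUMS libraries. The 13 olfactory receptor genes within 100000 bases of the beta cluster stayed at or below 0.146 FPKM. On chromosome 11, the long noncoding RNA gene Gm46275 (chr11:32304949-32312233), downstream of Hbq1a, was read at 14.1, 3.80 and 20.5 FPKM in control and 0.180, 0.626 and 2.97 FPKM in CUMS. All its CUMS libraries lay below all controls, as in 12.1% of genes tested, with a log2 change of -2.56 (limma adjusted p = 0.105, and 0.0114 with the replicate block). Snrnp25, at the other end of the cluster, had a log2 change of -0.10 (limma adjusted p = 0.805).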
